A study of Mus musculus with 16 samples.

Results

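The 10 genes described here build and load the MHC class I molecule: H2-K1, H2-D1, B2m, Tap1, Tap2, Tapbp, Psmb8, Psmb9, Psmb10 and Nlrc5. They were picked by symbol for their known role, and all 10 were found among the 55487 genes listed. RNA was sequenced from 16 organoid lines of 6 mice of the KPC model of pancreatic ductal adenocarcinoma, on the strain C57BL6/J. The 9 metastasis lines came from the liver of mice 1 and 6, the peritoneum of mice 2, 3 and 4, the diaphragm of mice 5 and 6, the lung of mouse 5 and the ovary of mouse 6. The 7 tumor lines came from the primary tumors, 1 from each of mice 1 to 5 and 2 from mouse 6 (replicates 6 and 7). Organoids are epithelial cultures that grow as small bodies in a basement membrane gel (Matrigel). Both groups were grown in the same medium with the TGF-beta receptor inhibitor A83-01, EGF, FGF-10, noggin and R-spondin, and no interferon is named in it. The labels name the model but not its alleles or the age of the animals.

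MHC class I molecules show peptides from inside a cell to cytotoxic T cells. Proteasomes cut proteins into peptides, the TAP transporter carries these into the endoplasmic reticulum, and there they are loaded on a heavy chain bound to beta-2 microglobulin. Interferon gamma raises most genes of this pathway and brings in the immunoproteasome subunits. Tumors are known to escape T cells by losing parts of it.

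Library depth was 24624420 to 47945773 expected counts in the metastasis lines, with a median of 41145454, and 25737458 to 49965492 in the tumor lines, with a median of 44180749. Ribosomal RNA made up a widely different share of the libraries: the 3 gene entries that took most of it (CT010467.1, AY036118 and Lars2) held 0.0185% to 72.7% of the counts in the metastasis lines, with a median of 12.3%, and 0.0463% to 29.95% in the tumor lines, with a median of 0.272%. The epithelial label was borne out by the keratins Krt7, Krt8, Krt18 and Krt19 with Epcam and Cdh1, which together reached, as counts scaled to library size (CPM), 4383 to 8960 in metastasis lines and 4176 to 6332 in tumor lines. The 8 immune markers, which would carry class I RNA of their own, summed to 0.120 to 1.01 CPM in metastasis lines and 0.268 to 0.953 CPM in tumor lines, and Tyrobp had no count in any line. The 6 fibroblast markers summed to at most 0.775 CPM in metastasis lines and at most 0.230 CPM in tumor lines, and the 5 endothelial ones to at most 6.29 CPM and 3.43 CPM. The 4 mesothelial markers summed to 308 to 756 CPM in metastasis lines and 164 to 1134 CPM in tumor lines, nearly all of it Msln, which pancreatic tumor cells also make. The 5 hepatocyte markers summed to 0.209 to 6.53 CPM and 6.65 to 113 CPM, mostly Ttr.

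Of the members, 7 lie on chromosome 17, in or near the H2 complex. On the build GRCm38.p6, Psmb9 (34181987 to 34187764, minus strand), Tap1 (34187553 to 34197225), Psmb8 (34197721 to 34201454) and Tap2 (34203527 to 34216321) follow each other, the last 3 on the plus strand. The annotated Tap1 and Psmb9 genes overlap by 212 bases on opposite strands. B2m lies on chromosome 2, and Psmb10 and Nlrc5 lie on chromosome 8. RefSeq promoter windows of 300 bases, 250 before a gene's start and 50 from it, were found for 8 of the 10 members. The windows of Tap1 (chr17:34187306-34187605, plus strand) and B2m (chr2:122147437-122147736, plus strand) are shown because these were the members whose RNA differed between metastasis and tumor lines in the test below. Those of H2-K1 (chr17:34000298-34000597, minus strand) and H2-D1 (chr17:35262844-35263143, plus strand) are shown for comparison, since the heavy chains that pair with B2m kept high levels. Each runs 5′ to 3′ on its gene's strand, and capitals mark motif matches on either strand.
Tap1: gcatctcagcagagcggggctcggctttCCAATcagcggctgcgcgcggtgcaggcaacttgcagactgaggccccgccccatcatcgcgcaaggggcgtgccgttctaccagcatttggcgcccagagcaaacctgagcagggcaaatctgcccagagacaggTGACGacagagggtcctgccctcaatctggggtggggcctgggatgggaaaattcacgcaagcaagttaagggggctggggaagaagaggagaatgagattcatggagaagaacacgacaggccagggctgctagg
B2m: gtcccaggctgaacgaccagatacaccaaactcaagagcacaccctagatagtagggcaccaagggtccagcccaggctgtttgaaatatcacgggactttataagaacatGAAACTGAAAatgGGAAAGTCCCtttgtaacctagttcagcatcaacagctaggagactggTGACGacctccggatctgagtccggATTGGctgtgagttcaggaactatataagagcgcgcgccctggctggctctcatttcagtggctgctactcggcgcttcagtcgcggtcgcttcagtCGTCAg
H2-K1: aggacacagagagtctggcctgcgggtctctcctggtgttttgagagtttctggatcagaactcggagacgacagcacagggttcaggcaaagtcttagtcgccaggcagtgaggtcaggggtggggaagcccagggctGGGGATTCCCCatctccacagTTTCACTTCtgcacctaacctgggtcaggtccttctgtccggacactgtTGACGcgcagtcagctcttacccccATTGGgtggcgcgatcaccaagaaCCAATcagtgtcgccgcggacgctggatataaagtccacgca
H2-D1: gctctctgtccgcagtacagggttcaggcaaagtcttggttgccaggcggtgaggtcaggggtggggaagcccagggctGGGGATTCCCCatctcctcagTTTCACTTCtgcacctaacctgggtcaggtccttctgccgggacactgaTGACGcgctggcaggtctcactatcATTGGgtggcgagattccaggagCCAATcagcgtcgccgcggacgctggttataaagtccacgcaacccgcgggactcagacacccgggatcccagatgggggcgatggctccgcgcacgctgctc

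The motifs were chosen after the sequences had been seen. They were an interferon-stimulated response element (GAAA and GAAA with NN between them), a shorter interferon regulatory factor element (GAANNGAAA), which can overlap the first but not lie inside it, an NF-kB site, the core of a cyclic AMP response element (TGACG) and a CCAAT box (CCAAT). An interferon gamma activated site (TTCNNNGAA) was sought too. It lay in 1 of the 8 member windows, that of Psmb8 at -97, and in 8.30% of all mouse windows. Positions are those of the leftmost base, counted back from the gene's start. B2m held the longer interferon element at -139 next to an NF-kB match at -126, with a cyclic AMP core at -78 and a CCAAT box at -53. Another cyclic AMP core lay at 45, past the start of B2m. H2-K1 and H2-D1 shared 1 order of matches: NF-kB, the shorter interferon element (at -90 in H2-K1 and -150 in H2-D1), the cyclic AMP core and 2 CCAAT boxes. Tap1 held a cyclic AMP core at -86 and a CCAAT box at -222, and no match to either interferon element or the NF-kB site in these 300 bases. The Tap1 window shares 275 bases with that of Psmb9, which reads the other way. Among all 32851 mouse windows of this length, 3.44% held the longer interferon element, 7.52% the shorter one, 8.46% the NF-kB site, 20.8% the cyclic AMP core and 37.4% the CCAAT box. Of the 8 member windows, 1, 2, 3, 5 and 6 held these motifs in the same order, but Tap1 and Psmb9 hold 1 and the same cyclic AMP core and 1 and the same CCAAT box, so these counts of 5 and 6 each include a shared site. A match is only a run of letters, and binding was not measured.

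Levels of different genes were compared in TPM, which allows for transcript length. The heavy chains and B2m were the most abundant members. In metastasis lines the mean TPM (± SD, n = 9) was 278 ± 89.5 for H2-K1, 142 ± 52.8 for H2-D1 and 81.4 ± 29.3 for B2m. In tumor lines the means (± SD, n = 7) were 231 ± 77.9 for H2-K1, 129 ± 34.0 for H2-D1 and 142 ± 33.3 for B2m. B2m thus ranked below H2-D1 in metastasis lines and beside it, within the spread, in tumor lines. Tapbp averaged 29.9 ± 13.1 TPM in metastasis lines and 22.7 ± 6.12 TPM in tumor lines, and Psmb10 averaged 20.2 ± 7.60 TPM and 19.9 ± 6.35 TPM. The other 5 members were low. Tap2 averaged 1.10 ± 1.06 TPM in metastasis lines and 0.969 ± 0.524 TPM in tumor lines, Psmb8 1.10 ± 1.24 TPM and 0.717 ± 0.766 TPM, and Psmb9 0.382 ± 0.237 TPM and 0.663 ± 0.306 TPM. Tap1 was the low member that set the groups apart, with 0.702 ± 0.343 TPM in metastasis lines and 2.77 ± 1.11 TPM in tumor lines. Among Tap2, Psmb8, Tap1 and Psmb9, neighbours in the metastasis order differed by less than the larger of their SDs. In tumor lines Tap1 stood above the other 3 by more than its own SD. Nlrc5 was the lowest member.

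Metastasis lines were set against tumor lines with a term for each mouse (edgeR's quasi-likelihood test, Benjamini-Hochberg adjustment over 15573 genes, threshold 0.05), because every metastasis line has a tumor line from its own mouse. Values that follow are in CPM on TMM-scaled library sizes, which compare lines within a gene. Of the 9 members that passed the filter on low counts, 2 were lower in metastasis lines (Tap1 and B2m), none was higher, and 7 did not pass the test. Over all genes tested, 16.5% were called, 9.92% lower and 6.59% higher. The lower share was 60.1% of the calls, and 79.1% with limma on log2(TPM + 1) values, where the median of all genes itself lay at -0.10. The median log2 fold change was 0.18 over the 9 tested members and -0.02 over all genes. The replicates are lines, and lines of 1 mouse are not independent animals, so the p-values partly measure the spread between lines. In such bulk samples fewer cells making an RNA and less of it per cell cannot be told apart.

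**Figure D1:**
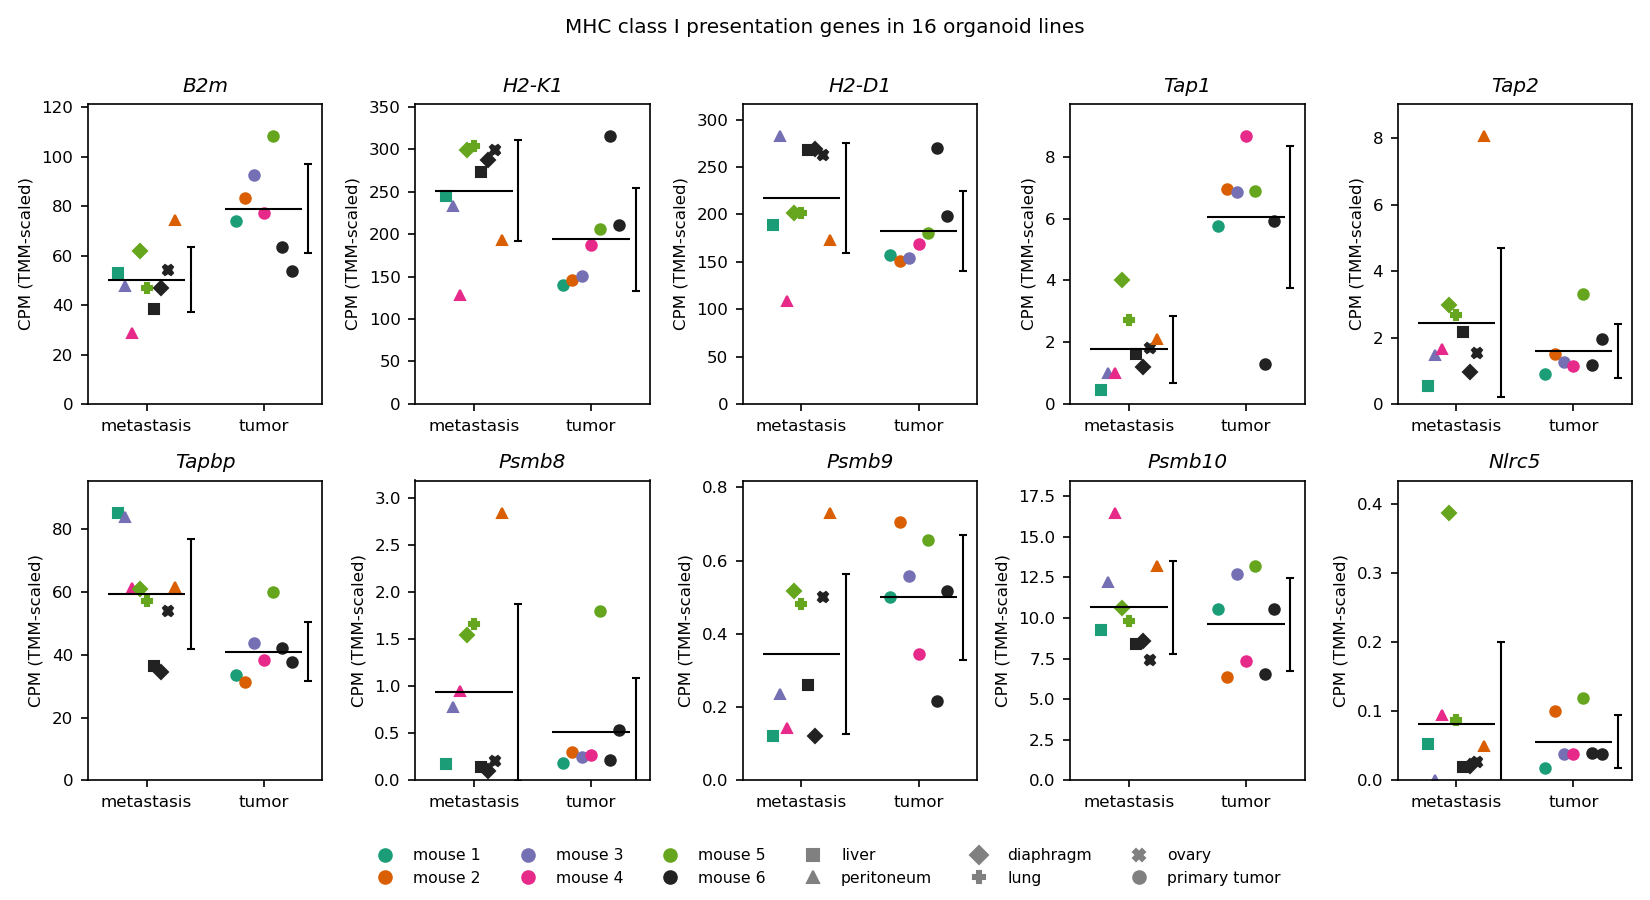
CPM of each of the 10 members in the 9 metastasis lines (left in each panel) and the 7 tumor lines, 1 point per line, coloured by mouse and shaped by site, with the mean (horizontal line) and SD (bar, cut at 0) per group. Tap1 is at most 4.00 CPM in metastasis lines and at least 5.76 CPM in 6 of 7 tumor lines, while H2-K1 and H2-D1 overlap widely.

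The heavy chains come first. H2-K1, which encodes the K heavy chain, had 128 to 304 CPM in metastasis lines, with a median of 274 CPM, and 140.1 to 316 CPM in tumor lines, with a median of 188 CPM. The groups overlapped: the highest line of all was tumor replicate 6 of mouse 6 and the lowest the peritoneal line of mouse 4. The log2 fold change was 0.30 (SE 0.14), positive in 5 of 6 mice, with an edgeR adjusted p of 0.167. Without tumor replicate 4, metastasis replicate 3 or mouse 4 as a whole, all of them lines of that 1 mouse, the adjusted p was 0.0458, 0.0470 and 0.0477. H2-K1 passed in only these 3 of 35 alternatives. H2-D1, which encodes the D heavy chain, had 109 to 283 CPM in metastasis lines, with a median of 202 CPM, and 151 to 270.4 CPM in tumor lines, with a median of 169 CPM. Its log2 fold change was 0.18 (SE 0.13, edgeR adjusted p 0.380), positive in 5 of 6 mice. Its lowest line was again the peritoneal line of mouse 4 and its highest tumor line again replicate 6, but the highest of all was the peritoneal line of mouse 3, and the groups overlapped. Expected counts of H2-D1 were not whole numbers in 14 of 16 lines (tolerance 0.011), so some of its reads were shared with like sequences and its level is uncertain to that extent; this was so for H2-K1 in 1 line.

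B2m encodes the light chain that every classical class I heavy chain needs to reach the cell surface. It had 28.8 to 74.5 CPM in metastasis lines, with a median of 47.8 CPM, and 54.0 to 108 CPM in tumor lines, with a median of 77.4 CPM. Of the 9 metastasis lines 6 lay below every tumor line, but the groups overlapped: the peritoneal line of mouse 2 had the highest metastasis value, beside 83.2 CPM in that mouse's tumor line. The means were 50.3 ± 13.1 CPM in metastasis lines (SD, n = 9) and 79.0 ± 18.1 CPM in tumor lines (SD, n = 7). B2m fell by 0.67 on the log2 scale (SE 0.15, edgeR adjusted p 0.0137) and was lower in 6 of 6 mice. Each metastasis line was below the tumor level of its own mouse, by 1.43 on the log2 scale in the peritoneal line of mouse 4, by 1.20 in the lung line of mouse 5 and by as little as 0.11 in the ovary line of mouse 6. The call rested in part on mouse 5, whose tumor line was the highest of all: without that line (tumor replicate 5) the edgeR adjusted p was 0.0533, with a log2 fold change of -0.60, and without mouse 5 it was 0.0735, with -0.56. On log2(TPM + 1) values limma gave -0.83 with an adjusted p of 0.0903.

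Tap1, 1 of the 2 subunits of the peptide transporter, was the member with the largest fold change. It had 0.453 to 4.00 CPM in metastasis lines, with a median of 1.62 CPM, and 1.29 to 8.68 CPM in tumor lines, with a median of 6.88 CPM. The lowest line was the liver line of mouse 1, with 0.453 CPM beside 5.76 CPM in the tumor line of the same mouse. All tumor lines but 1 lay above all metastasis lines, the exception being tumor replicate 6 of mouse 6 at 1.29 CPM, beside 5.93 CPM in replicate 7 of the same mouse. The highest metastasis values in CPM, 4.00 and 2.71, were the diaphragm and lung lines of mouse 5; in TPM the diaphragm line, at 0.81, lay below the lung line and the peritoneal line of mouse 2. Tap1 averaged 1.77 ± 1.08 CPM in metastasis lines (SD, n = 9) and 6.05 ± 2.30 CPM in tumor lines (SD, n = 7). It fell by 2.02 on the log2 scale (SE 0.41, edgeR adjusted p 0.00955), and it was lower in 6 of 6 mice. The within-mouse difference in mean log2 CPM was -2.15 ± 1.11 (SD over 6 mice), between -3.54 in mouse 1 and -0.86 in mouse 6. The expected counts behind these values were 26 to 124 in metastasis lines and 65.8 to 451 in tumor lines.

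The share of ribosomal RNA also differed between the groups. The diaphragm line of mouse 5, with 72.7% of counts in the ribosomal entries, had the highest Tap1 of the metastasis lines in CPM, from 31 expected counts and a TMM factor of 0.315. In TPM the same line was the lowest of all 16 for B2m (35.96 TPM, against 62.0 CPM) and for Tapbp (9.98 TPM, against 60.8 CPM), so its rank depends on the scaling. The tumor line of mouse 2, with 29.95%, had 6.95 CPM, close to the other tumor lines. Without these 2 libraries the log2 fold change of Tap1 was -2.15 (edgeR adjusted p 0.0383) and that of B2m was -0.76 (adjusted p 0.0386). The share still differed between the groups then, with 0.0185% to 18.5% in metastasis lines and at most 0.588% in tumor lines. With the share as a covariate the log2 fold change was -2.11 for Tap1 (edgeR adjusted p 0.0186) and -0.66 for B2m (adjusted p 0.0328). Whether the share acts on these genes was not tested.

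**Figure D2:**
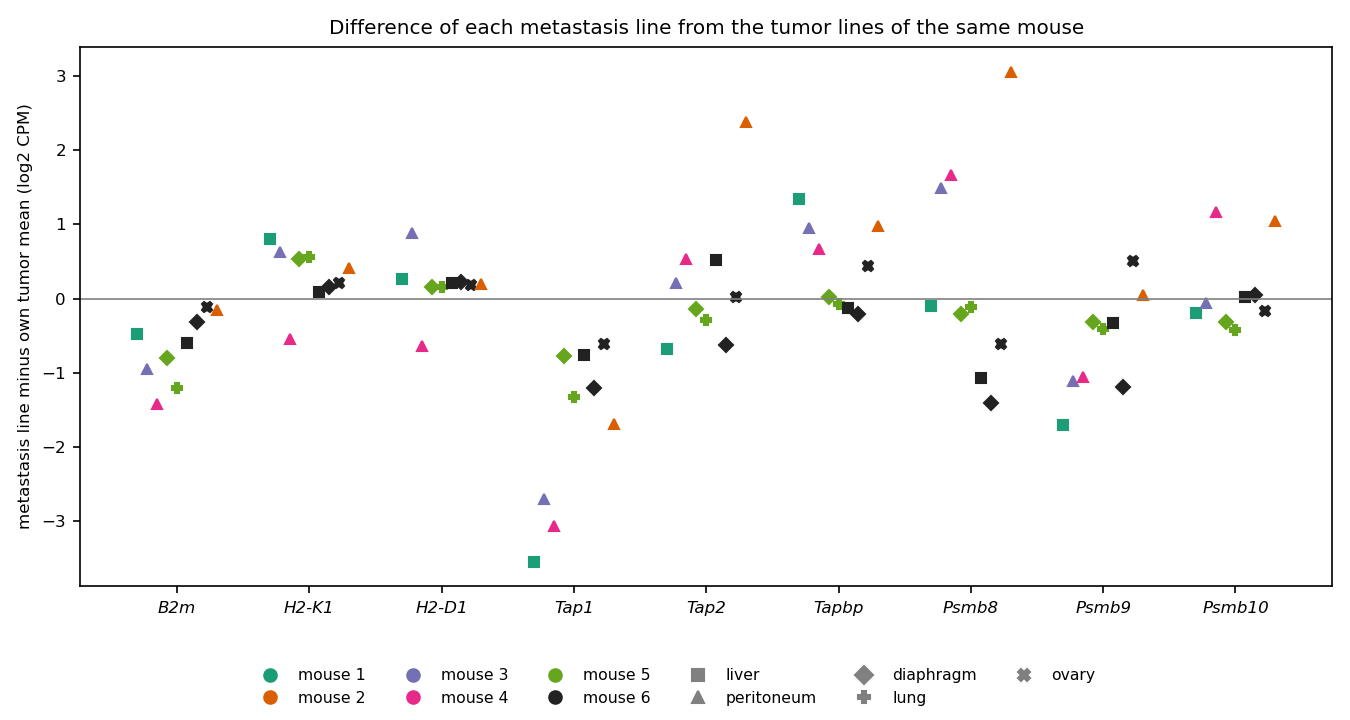
Difference in log2 CPM between each metastasis line and the mean tumor level of its own mouse, for the 9 members tested, with 1 mark per line, coloured by mouse and shaped by site. All 9 lines lie below 0 for Tap1 and B2m; for Psmb8 the 3 peritoneal lines lie above 0, at 1.48, 1.66 and 3.06, and the other 6 below it.

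Tap2, the other subunit of the transporter, did not move with Tap1. It had 0.540 to 8.06 CPM in metastasis lines, with a median of 1.66 CPM, and 0.896 to 3.30 CPM in tumor lines, with a median of 1.25 CPM. The peritoneal line of mouse 2 stood far above all others, and without it most values of both groups lay in 1 range. The log2 fold change was 0.24 (SE 0.33, edgeR adjusted p 0.645), positive in 3 of 6 mice, and it turned to -0.04 without that line (metastasis replicate 9), without the tumor line of that mouse (tumor replicate 2) or without mouse 2. As a description added after the values were seen, the TPM ratio of Tap1 to Tap2 had a median of 0.726 in metastasis lines, with a range of 0.251 to 1.76, and a median of 2.96 in tumor lines, with a range of 0.918 to 7.16. It was lower in 6 of 6 mice. Most Tap2 transcripts were assigned to the isoform Tap2-202, annotated as a retained intron, with 72.6% ± 9.03 in metastasis lines (SD, n = 9) and 65.2% ± 15.4 in tumor lines (SD, n = 7). The coding isoform Tap2-201 held 19.2% ± 11.99 and 17.1% ± 12.8, so the gene level of Tap2 is mostly not that of its coding transcript in either group. For Tap1 the coding isoform Tap1-206 held 83.2% ± 19.4 in metastasis lines and 90.1% ± 4.67 in tumor lines.

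Tapbp encodes tapasin, which bridges TAP and the empty class I molecule. It had 34.4 to 85.3 CPM in metastasis lines, with a median of 60.8 CPM, and 31.4 to 60.1 CPM in tumor lines, with a median of 38.4 CPM. In CPM the 5 highest lines were metastasis lines, from mice 1 to 5, although that of mouse 5 (diaphragm, 72.7% ribosomal RNA) was only just above its tumor line and was the lowest of all 16 lines in TPM, at 9.98. The liver and diaphragm lines of mouse 6 lay among the tumor lines. Expected counts of Tapbp were not whole numbers in 16 of 16 lines, so some of its reads were shared with other entries. Its level is uncertain to that extent. For Tap2 this was so in 3 lines. The log2 fold change was 0.51 (SE 0.17, edgeR adjusted p 0.0646), positive in 5 of 6 mice. Without tumor replicate 6 the adjusted p was 0.0342, with a log2 fold change of 0.59, and without mouse 6 it was 0.0339, with 0.75. DESeq2 gave an adjusted p of 0.0276.

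The 3 immunoproteasome subunits, which replace catalytic subunits of the standard proteasome, differed in level and did not pass the test. Psmb8 had 0.102 to 2.85 CPM in metastasis lines, with a median of 0.782 CPM, and 0.190 to 1.81 CPM in tumor lines, with a median of 0.269 CPM. The groups overlapped: the peritoneal line of mouse 2 was the highest, the 3 lines of mouse 5 were high in both groups, and the 3 metastasis lines of mouse 6 were at or below 0.210 CPM. Its log2 fold change was 0.36 (SE 0.52, edgeR adjusted p 0.666), positive in 3 of 6 mice; without tumor replicate 2, metastasis replicate 9 or mouse 2 it lay between -0.01 and 0.00. Psmb9 had 0.122 to 0.731 CPM in metastasis lines, with a median of 0.261 CPM, and 0.216 to 0.705 CPM in tumor lines, with a median of 0.517 CPM. Its log2 fold change was -0.73 (SE 0.34, edgeR adjusted p 0.156), with lower values in 5 of 6 mice, from 4 to 29 expected counts per metastasis line and 11.2 to 33.5 per tumor line. In 9 of 16 lines the expected counts of both Psmb9 and Tap1 were not whole while their sum was, so reads of the stretch where these genes overlap were split between them, and the strand setting of the counting is not given in the sources used here. Psmb10 had 7.39 to 16.5 CPM in metastasis lines, with a median of 9.81 CPM, and 6.39 to 13.2 CPM in tumor lines, with a median of 10.5 CPM. The groups overlapped over most of their range, and the log2 fold change was 0.15 (SE 0.20, edgeR adjusted p 0.632), higher in 2 mice and lower in 4.

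Each subunit was also set against the standard subunit it replaces, as a ratio of TPM. Psmb8 reached 0.0580% to 2.98% of Psmb5 in metastasis lines, with a median of 0.741%, and 0.186% to 1.67% in tumor lines, with a median of 0.323%. Psmb9 reached 0.0589% to 0.556% of Psmb6 in metastasis lines, with a median of 0.140%, and 0.101% to 0.488% in tumor lines, with a median of 0.315%. Standard subunits thus far outnumbered these 2 at the RNA level in every line. Psmb10 stood higher, at 10.2% to 18.7% of Psmb7 in metastasis lines, with a median of 12.2%, and 9.51% to 16.6% in tumor lines, with a median of 13.4%. These are gene levels: the coding isoform Psmb10-201 held 30.3% ± 3.16 of Psmb10 transcripts in metastasis lines and 31.9% ± 5.10 in tumor lines. Within mice the log2 ratio of Psmb8 to Psmb5 differed by 0.81 ± 1.60 between metastasis and tumor (SD over 6 mice), that of Psmb9 to Psmb6 by -0.80 ± 0.76 and that of Psmb10 to Psmb7 by 0.09 ± 0.55. A two-sided exact test that flips the signs of the 6 mice gave p = 0.312, 0.0938 and 0.688, or 0.469, 0.281 and 0.688 after Benjamini-Hochberg adjustment over the 3 ratios; 0.0312 is the smallest p that 6 mice allow.

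**Figure D3:**
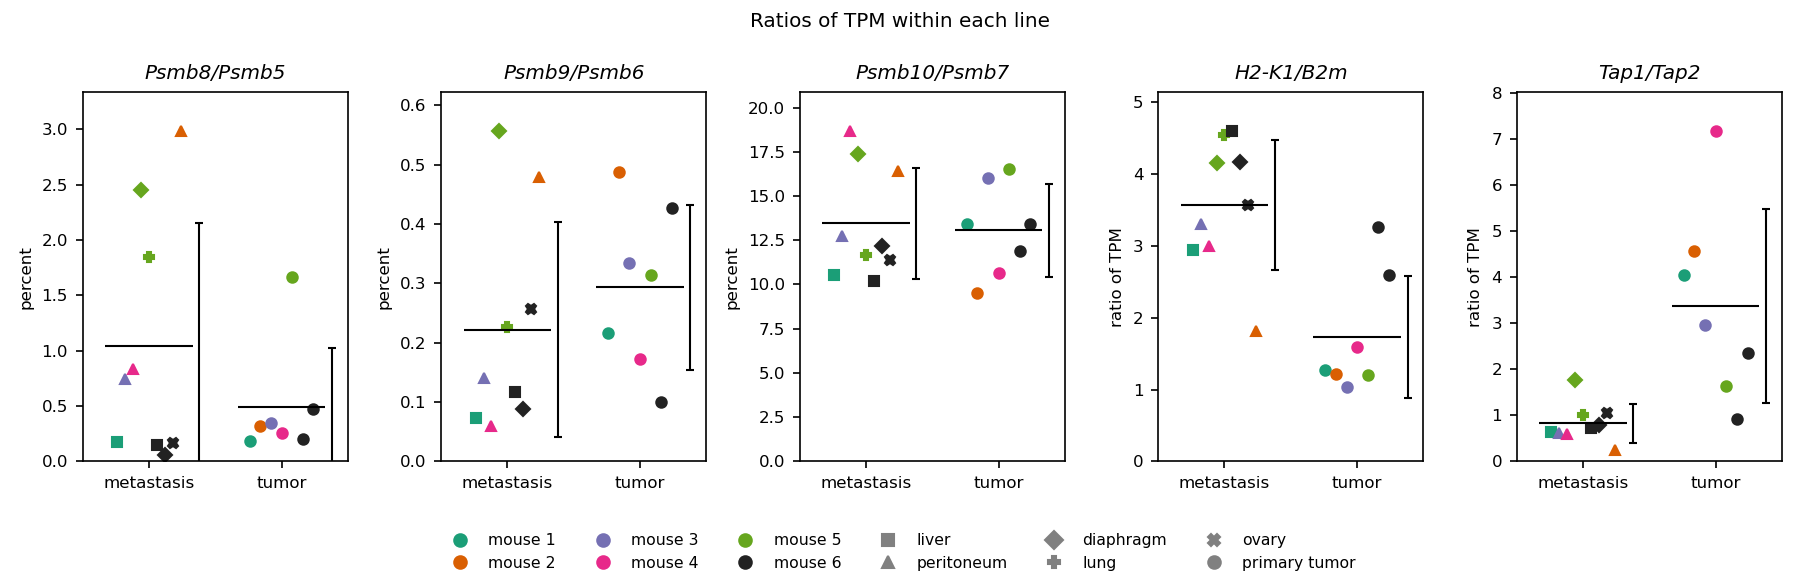
TPM ratios by line, metastasis lines left of tumor lines: each immunoproteasome subunit as a percent of the standard subunit it replaces, and the ratios of H2-K1 to B2m and of Tap1 to Tap2. Colours mark mice, shapes mark sites, horizontal lines are means and bars are SDs, cut at 0. The H2-K1 to B2m ratio has a median of 3.57 in metastasis lines and 1.28 in tumor lines, and the Tap1 to Tap2 ratio 0.726 and 2.96.

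Nlrc5, a transcriptional activator of class I genes, was near the limit of detection. It had 19 counts summed over the metastasis lines and 17 over the tumor lines, with 0 to 6 in a line, and did not pass the filter. The peritoneal line of mouse 3 had no count, which allows up to 0.0782 CPM at 3 counts. At this depth a difference in Nlrc5 was not detectable.

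The TPM ratio of H2-K1 to B2m was 1.82 to 4.60 in metastasis lines, with a median of 3.57, and 1.03 to 3.26 in tumor lines, with a median of 1.28. It was higher in 6 of 6 mice, and the groups overlapped only through the mouse 6 tumor lines and the lowest metastasis lines. This ratio was chosen after the values were seen and was not tested, and H2-K1 itself did not pass the test between the groups. Over the 16 lines, which share libraries, depth and mice, Pearson's r of log2 CPM was 0.85 between H2-K1 and H2-D1, 0.82 between Tap2 and Psmb8, 0.78 between Tap1 and Psmb9, 0.70 between B2m and Tap1, and -0.23 between B2m and H2-K1. The members therefore fell into no single pattern across lines. Reads were split between Tap1 and Psmb9 in 9 of 16 lines, so the r of these 2 is uncertain to that extent. The genes most like the members' mean over the 16 lines were Kif1a (r = 0.87), Rarb (0.81), H2-Q4 (0.79), Cmpk2 (0.79) and Gm37524 (0.78), and those most like Tap1 were Timm21 (0.94), Syn3 (0.94) and Ybey (0.94). No such genes were sought for Nlrc5, given its counts.

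The metastatic sites were then compared in 1 fit against the tumor lines, with a term per mouse. Peritoneal lines, from mice 2, 3 and 4, had Psmb8 at 0.782, 0.950 and 2.85 CPM, beside 0.250 to 0.302 CPM in the tumor lines of those mice. This was a log2 difference of 2.19 (SE 0.58), the largest rise of any member at a site with more than 1 line, but its edgeR adjusted p was 0.0860. For Tap1 the same lines gave -2.53 (SE 0.74, adjusted p 0.105), for B2m -0.85 (SE 0.24, adjusted p 0.0973) and for Tapbp 0.86 (SE 0.26, adjusted p 0.109). None of the 9 tested members was called in the peritoneal comparison, where 1.1% of all genes were. An unadjusted edgeR p under 0.05 was reached by 5 members and by 3654 of all 15573 genes. In liver lines, from mice 1 and 6, Tap1 was at -1.99 (SE 0.83) and Psmb8 at -0.74 (SE 0.68), and in diaphragm lines, from mice 5 and 6, Tap1 was at -1.46 (SE 0.87) and Psmb8 at -0.99 (SE 0.68). No gene of the 15573 was called in either (0% each), with 1117 and 1137 genes at an unadjusted p under 0.05, of which 1 and 0 were members. The single lung and ovary lines, which borrow their spread from the other lines, had no gene called (0%), with 1558 and 166 at an unadjusted p under 0.05. An edgeR quasi-likelihood test that the 5 sites are equal called no gene (0%), with 266 genes at an unadjusted p under 0.05. Psmb8 was the only member among these (unadjusted p 0.0422), and its edgeR adjusted p was 0.9999. Sites and mice are largely tied, since peritoneal lines come from mice that gave no other metastasis line, so the 2 cannot be told apart.

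Differences between mice were asked of all lines together. The edgeR F test of equal mice called 24 genes (0.154%), none of them a member, while 2661 genes, 4 of them members, had an unadjusted p under 0.05. These were Psmb8 (adjusted p 0.188), Tap2 (0.198), H2-D1 (0.242) and H2-K1 (0.245). For Psmb8 the 3 lines of mouse 5 had 1.55, 1.66 and 1.81 CPM, the last being the tumor line, whereas the 5 lines of mouse 6 had 0.102, 0.140, 0.210, 0.216 and 0.536 CPM, the last 2 being tumor lines. H2-K1 had 274, 287 and 299 CPM in the metastasis lines of mouse 6 and 316 and 211 CPM in its tumor lines. All of these lay above the tumor lines of the other mice. The metastasis lines of mouse 5, at 299 and 304 CPM, were as high as those of mouse 6.

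Pathway genes outside the members were then described. The counts of calls in every list below stand beside 16.5% of all genes tested, 9.92% lower and 6.59% higher. Of the 13 pathway genes called, 11 did not pass without the 2 libraries richest in ribosomal RNA, while Mr1 and Ifit2 did. Over all genes the calls fell from 2571 to 794 in that setting, which also left mouse 2 without a tumor line. The 794 are all genes called in that setting, not those kept of the 2571. Whether the pathway genes lost more calls than other genes was not tested. The remaining class I family gave calls in both directions (means below are ± SD over 9 metastasis and 7 tumor lines, given in that order). Of 15 further class I and class I-like genes 11 were tested, 2 were higher, 3 were lower and 6 did not pass, with a median log2 fold change of -0.15. Cd1d1, which presents lipids to NKT cells, averaged 0.122 ± 0.139 CPM in metastasis lines and 0.591 ± 0.404 CPM in tumor lines, and fell by 2.56 on the log2 scale (SE 0.57, edgeR adjusted p 0.0129). Mr1, which presents vitamin B metabolites to MAIT cells, averaged 0.757 ± 0.938 CPM and 2.64 ± 1.76 CPM, and fell by 2.61 (SE 0.59, adjusted p 0.0138). Both were lower in 6 of 6 mice. Without those 2 libraries the adjusted p of Cd1d1 was 0.0512. Without mouse 5 it was 0.0525 for Cd1d1 and 0.0515 for Mr1, and without the mouse term that of Mr1 was 0.0950. The nonclassical H2-Q7 averaged 0.677 ± 0.490 CPM and 2.01 ± 0.991 CPM, with a log2 value of -1.75 for the change (SE 0.49, adjusted p 0.0320). H2-T22 averaged 29.5 ± 4.55 CPM and 18.7 ± 8.17 CPM, with 0.65 (SE 0.20, adjusted p 0.0416), and H2-T24 averaged 0.720 ± 0.339 CPM and 0.359 ± 0.0958 CPM, with 0.86 (SE 0.26, adjusted p 0.0439). These 3 were weak calls: leaving out 1 line ended them in 11, 12 and 14 of 16 cases, with adjusted p up to 0.0947, 0.109 and 0.126, and without the mouse term the adjusted p of H2-T24 was 0.0502. The nearest genes that did not pass were H2-Q10 (adjusted p 0.117), H2-Q6 (0.240) and H2-T23 (0.243). Members of the H2-Q and H2-T families resemble each other closely, so their counts are uncertain.

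The machinery around the members changed little. Of 10 peptide trimming and loading genes, all tested, 1 was lower and 9 did not pass, with a median of 0.02. The lower one was the lectin chaperone calnexin (Canx), which averaged 568.2 ± 46.7 CPM in metastasis lines and 693 ± 77.8 CPM in tumor lines, a log2 difference of -0.27 (SE 0.09, edgeR adjusted p 0.0475). Leaving out 1 line ended this call in 14 of 16 cases, with an adjusted p up to 0.123. The nearest others were the insulin-degrading enzyme gene Ide (adjusted p 0.0533), the chaperone gene Hspa5 (0.119) and the loading complex member Pdia3 (0.126). None of the 3 standard catalytic subunits (Psmb5, Psmb6 and Psmb7) and none of 15 other proteasome genes passed the test, with medians of 0.03 and 0.09. Among the latter 15 the assembly factor Pomp came nearest (0.26, SE 0.09, adjusted p 0.0584), followed by Psma5 (0.120) and Psma2 (0.124).

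**Figure D4:**
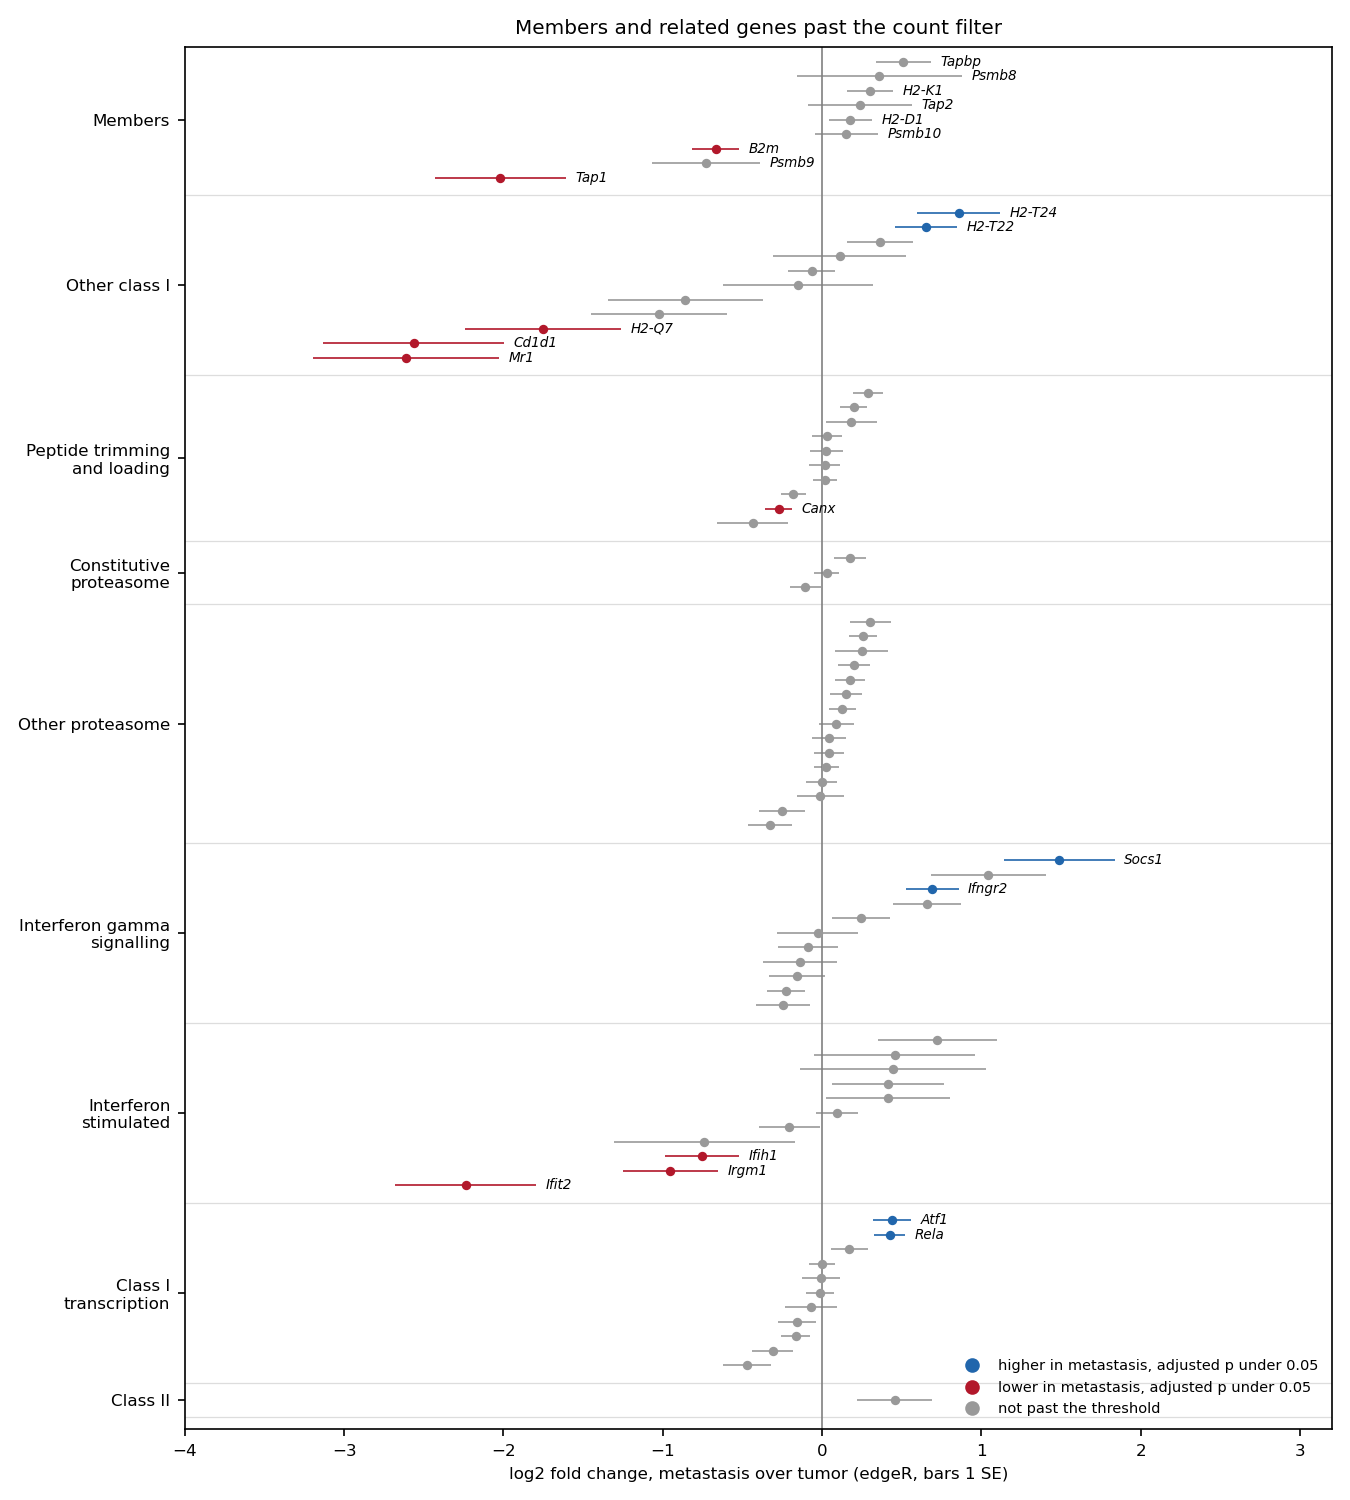
Log2 fold change of metastasis against tumor lines for every tested gene of the members and of the 8 pathway lists, 1 point per gene with a bar of 1 SE, red (lower) or blue (higher) where the edgeR adjusted p is under 0.05 and grey otherwise. Of the members, Tap1 at -2.02 and B2m at -0.67 are red and the other 7 are grey.

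Interferon gamma signalling genes gave 2 higher of 11 tested, 0 lower and 9 not called, with a median of -0.03. The receptor chain gene Ifngr2 rose by 0.69 (SE 0.16, edgeR adjusted p 0.0176), and Socs1, an inhibitor of this pathway that it also induces, rose by 1.49 (SE 0.35, adjusted p 0.0163), to 2.87 ± 0.818 CPM in metastasis lines against 1.13 ± 0.839 CPM in tumor lines. Both were higher in 6 of 6 mice. Without tumor replicate 3 or metastasis replicate 2 the adjusted p of Ifngr2 was 0.0508 and 0.0505. Without the 2 libraries richest in ribosomal RNA it was 0.0915 for Ifngr2 and 0.0608 for Socs1. On log2(TPM + 1) values limma gave 0.341 and 0.129, and on log2(TPM + 0.1) values 0.374 and 0.0531. Irf1, a direct activator of Tap1, Psmb9 and B2m, averaged 20.3 ± 9.43 CPM in metastasis lines and 21.5 ± 7.36 CPM in tumor lines and did not pass the test (edgeR adjusted p 0.710). The nearest others were Jak2 (adjusted p 0.0536), Cd274, which encodes PD-L1 (0.0675, and 0.0485 without the mouse term), and Jak1 (0.210).

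Of 20 interferon-stimulated genes 11 were tested, 0 were higher, 3 were lower and 8 did not pass, with a median of 0.09. Ifit2, an antiviral RNA-binding protein, averaged 0.993 ± 0.636 CPM in metastasis lines and 4.84 ± 2.29 CPM in tumor lines, and fell by 2.24 on the log2 scale (SE 0.44, edgeR adjusted p 0.00847), lower in 6 of 6 mice; without mouse 5 its adjusted p was 0.0517. The GTPase gene Irgm1 (-0.95, SE 0.30, adjusted p 0.0491) and the RNA sensor gene Ifih1 (-0.76, SE 0.23, adjusted p 0.0465) were lower in 5 of 6 mice each, and leaving out 1 line ended each call in 13 of 16 cases, with adjusted p up to 0.141 and 0.114. Without the mouse term their adjusted p was 0.0618 for Irgm1 and 0.472 for Ifih1. The nearest others were Irf7 (adjusted p 0.197), Oas1a (0.391) and Xaf1 (0.437).

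Of 11 transcription factors and regulators known to act on class I promoters 2 were higher, none was lower and 9 did not pass, with a median of -0.01. The NF-kB subunit gene Rela rose by 0.42 (SE 0.10, edgeR adjusted p 0.0147) and Atf1, of the CREB family, by 0.44 (SE 0.12, adjusted p 0.0289), each higher in 6 of 6 mice. Leaving out 1 line ended the Atf1 call in 8 of 16 cases, with an adjusted p up to 0.0892, and the Rela call in none, but without the 2 libraries richest in ribosomal RNA the adjusted p was 0.0608 for Rela and 0.0928 for Atf1, and limma on log2(TPM + 1) values gave 0.621 and 0.602; without the mouse term the adjusted p of Atf1 was 0.0582. The nearest others were Rfx5, which binds class I promoters together with NLRC5 (-0.47, SE 0.15, adjusted p 0.0531), Nfyb (0.116) and Creb1 (0.228). Of 7 MHC class II genes 1 was tested, H2-DMa, at 0.46 on the log2 scale (SE 0.24, edgeR adjusted p 0.196). The remaining 6 were too low to test, including Cd74 at 0.105 ± 0.0538 CPM in metastasis lines and 0.259 ± 0.245 CPM in tumor lines.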

How the data were processed

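RNA was measured in 9 metastasis and 7 tumor organoid lines of 6 mice. Per the submitters' processing notes, the tools were FastQC 0.11.8, STAR 2.6.0c and RSEM 1.3.1 with the build GRCm38.p6; strand setting and annotation are not given in the sources used here. The authors deposited a gene and an isoform table per line, which hold expected counts (estimates that need not be whole) and TPM per the file headers. The isoform tables also hold the percent of a gene's transcripts per isoform, per the file headers.

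Of 55487 gene identifiers, 55394 were matched to GENCODE mouse M21 names; the 93 others held at most 0.00356% of a library's counts. Expected counts were rounded and tested with edgeR 4.0.16 (R 4.3.3): TMM scaling, filterByExpr by stage, quasi-likelihood test, a term per mouse and Benjamini-Hochberg adjustment over all genes tested, with a threshold of 0.05. Log2 CPM used a prior count of 2. The pairing comes from the mouse labels; deviations from the group means correlated at 0.261 on average over 17 pairs of lines of 1 mouse and at -0.12 over 103 pairs of different mice. The TPM ratios were compared by a two-sided exact test that flips signs over mice. The scripts were tested on simulated data.

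The 10 members, the pathway lists and the markers were chosen with earlier results of these data known. All members are named; of each list, genes past the threshold and up to 3 others with the lowest p are named, as are the 5 and 3 genes most like the members' mean and Tap1. Irf1, Cd74 and the remaining list genes with values were added after their values were seen. Alternatives covered scaling, filters, the mouse term, DESeq2 1.42.0, limma 3.58.1 on log2 TPM with 1 or 0.1 added, ribosomal RNA, and leaving out lines or mice. The floor of 3 counts covers counting error only.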

Additional observations from a re-analysis of the deposited data

Results flagged for a closer look

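Among 26 groups of values (each member and each proteasome ratio, in each stage), 8 had 1 line far from the others by Dixon's criterion. That criterion flags about 1 in 20 groups of normally spread values. These groups repeat the same lines, and Psmb8 enters both alone and in a ratio. The count of 8 can therefore not be read against that rate. Tumor replicate 6, of mouse 6, was the highest tumor line for H2-K1 at 315.6 CPM and for H2-D1 at 270.4 CPM, and the lowest for Tap1 at 1.294 CPM. Tumor replicate 5, of mouse 5, was the highest tumor line for Tapbp at 60.11 CPM, for Psmb8 at 1.807 CPM and for the TPM ratio of Psmb8 to Psmb5 at 1.669%. Metastasis replicate 9, the peritoneal line of mouse 2, stood highest for Tap2 at 8.064 CPM. Metastasis replicate 4, the diaphragm line of mouse 5, stood highest for Nlrc5 at 0.3874 CPM. This value came from 3 expected counts, fewer than the 4 each in metastasis replicates 3 and 5, so it lies within counting error. The line had 72.7% of its counts in ribosomal entries.

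For 2 members, 3 pairs of sites lay on opposite sides of the tumor level in every line. Not every site divided this way: for Tap2 the liver lines were at -0.686 in mouse 1 and 0.513 in mouse 6. For Psmb8 the single lung and ovary lines, at -0.119 and -0.608, also lay on the other side of the tumor level from the peritoneal lines. The log2 difference of Tap2 from the same mouse's tumor level was higher in peritoneal than in diaphragm lines by 1.431, and by 0.761 without metastasis replicate 9. That of Psmb8 was lower in liver than in peritoneal lines by 2.65 (-2.65) and higher in peritoneal than in diaphragm lines by 2.876. These pairs of sites, 3 of 27 looked at, were not tested one against another, and the edgeR test that all sites are equal gave an unadjusted p of 0.440 for Tap2 and 0.0422 for Psmb8.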

How the results depend on the processing

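Tap1 passed the threshold in 35 of 35 alternatives, with a log2 fold change of -2.37 to -1.10, the smallest on log2(TPM + 1) values, and an adjusted p of at most 0.0383. B2m passed in 31 of 35. The number of genes called was 2571; without the mouse block (no pairing) it was 2219, and leaving it out changed no call among the members. DESeq2 called 3968 genes. On the TPM scale limma called 794 with 1 added and 1316 with 0.1 added, where the median of all genes shifted to -0.10 and -0.16 and 79.1% and 65.5% of calls were lower, against 60.1%. Without the 2 libraries richest in ribosomal RNA 794 genes were called, 70.03% of them lower. Leaving out 1 line gave 1133 to 3910 genes, and leaving out mouse 1, 2, 3, 4, 5 or 6 gave 1500, 1394, 1272, 1677, 766 and 2950; without mouse 6 the lower share was 48.6%, so most calls were then higher. The 2 members called became 1 (Tap1) under both TPM settings, without tumor replicate 5 (range over lines left out 1 to 3) and without mouse 5.

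The mouse test called 24 genes, 4 to 370 without 1 line and 5 without mouse 6. The site test called 0 throughout. Directions reversed for members that did not pass: Tap2 (-0.0325 on log2(TPM + 0.1), -0.036 without the 2 libraries richest in ribosomal RNA, -0.0386 without mouse 2, and -0.0386 to 0.378 without 1 line) and Psmb8 (-0.0066 without mouse 2, -0.0096 to 0.750 without 1 line). They also did for Psmb6 (-0.142 and -0.143 on the TPM settings, -0.0161 without mouse 3, -0.0161 to 0.0828 without 1 line), Oas1a (0.25 without the block) and the log2 ratio of Psmb10 to Psmb7 (-0.0565 to 0.175 without 1 line). The cause was not tested. Low counts limit Psmb8, Psmb9 and Nlrc5.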
